A study of Mus musculus with 28 samples.

Results

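The genes described here encode the enzymes and carriers that break down fatty acids in the mitochondria and peroxisomes of the liver, together with a ketone body enzyme. The set was a list of 32 genes, and each gene was represented by the probe set with the highest mean over all arrays among the probe sets that name this gene alone. Of the 32 genes, 31 were measured, out of 18193 genes named on the array. Acsl1 was not analysed here because no probe set naming it alone was found in the annotation used. The 31 genes are covered by 50 probe sets, and 14 genes have more than 1. RNA was taken from whole liver of C3H/HeN female mice, 1 mouse per array. The mice were 5 weeks old at the start, spent 1 week of acclimation on a standard CE-2 diet, and then received Lieber's isocaloric diet, ad libitum for 1 week and at 12 g per day for 4 weeks. The diet contained water (control), ethanol (EtOH), ethanol plus ellagic acid (EA), or ethanol plus trans-resveratrol (RSV), and the intake of each polyphenol was about 50 mg per kg of body weight per day. Wild-type mice gave 4 arrays per diet and mice deficient in the nuclear receptor CAR, on the same C3H/HeN background, gave 3 arrays per diet. The paper's diet formula lists much less maltose and dextrin in the ethanol diets than in the control diet. In every comparison with control, ethanol and this lower carbohydrate content cannot be told apart. The polyphenols were always given with ethanol, so no group shows a polyphenol alone.

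Long-chain fatty acids are activated to acyl-CoA and handed to carnitine by Cpt1a at the outer mitochondrial membrane, the step that controls entry. The carrier Slc25a20 and Cpt2 complete the transfer, and a chain of dehydrogenases, hydratases and thiolases then removes acetyl-CoA in repeated rounds. Electrons leave through the electron transfer flavoprotein (Etfa, Etfb) and its dehydrogenase Etfdh. Peroxisomes shorten very long, branched and bile acid side chains, and the liver turns part of the acetyl-CoA into ketone bodies. Ethanol oxidation in hepatocytes is known to compete with fatty acid oxidation, and the nuclear receptor PPARα is the best known activator of these genes. The comparisons ask how these genes stood when ethanol was given, and when either polyphenol was added to it.

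The values are log2 values summarised by Distribution Free Weighting (DFW), which holds a probe set almost constant when its probes vary little. A probe set whose standard deviation over the arrays of a genotype was at most 0.01 is called compressed below. Of all probe sets, 85.3% were compressed in wild-type and 79.3% in CAR-deficient mice. Among the 31 genes, 6 were compressed in wild-type mice (Crat, Etfa, Etfb, Acaa2, Acads and Hsd17b4) and 1, Etfa, in CAR-deficient mice, which left 25 and 30 genes. A difference is therefore in DFW log2 units and is not a calibrated fold change, and the level of a gene is not compared between genotypes. Hepatocyte markers were high on all arrays, with a mean over 10 markers of 13.408 to 13.613 in wild-type mice. The only probe set naming Nr1i3, the gene of CAR, read 8.96 to 10.1 in wild-type and 8.55 to 9.49 in CAR-deficient mice. Where this probe set lies relative to the deleted part is not given in the sources used here, so it does not check the genotype labels. In bulk liver, fewer cells of a type and less RNA per cell cannot be told apart.

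Promoters of 3 of the 4 genes called higher with EA than with EtOH are shown together with the stretch between Hadha and Hadhb, because PPARα and CAR bind repeats of the hexamer AGGTCA. RefSeq sequences (GRCm38.p6) of the 250 bases before the start were at hand for 26 of the 31 genes, Amacr, the other gene of the 4, not among them. Cpt1a, Acsm5 and Slc27a2 were called in wild-type mice. Hadha and Hadhb were not called in that comparison, and these genes, the subunits of the trifunctional protein, share the stretch between their divergent starts. The windows are chr19:3323051-3323300 (+ strand) for Cpt1a, chr7:119526015-119526264 (+ strand) for Acsm5, chr2:126552774-126553023 (+ strand) for Slc27a2, and the 272 bases chr5:30154981-30155252 (+ strand) between Hadha and Hadhb. Capitals mark matches to AGGNCA on either strand.
Cpt1a: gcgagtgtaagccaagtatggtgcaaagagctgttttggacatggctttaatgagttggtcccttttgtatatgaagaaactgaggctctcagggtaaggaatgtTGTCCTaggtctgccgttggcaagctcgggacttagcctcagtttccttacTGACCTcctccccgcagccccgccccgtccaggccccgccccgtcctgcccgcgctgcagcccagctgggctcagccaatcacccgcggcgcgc
Acsm5: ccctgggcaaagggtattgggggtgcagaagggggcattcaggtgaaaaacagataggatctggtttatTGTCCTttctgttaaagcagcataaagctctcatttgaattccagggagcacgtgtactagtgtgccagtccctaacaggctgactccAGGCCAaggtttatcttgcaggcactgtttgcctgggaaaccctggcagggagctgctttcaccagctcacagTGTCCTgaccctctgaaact
Slc27a2: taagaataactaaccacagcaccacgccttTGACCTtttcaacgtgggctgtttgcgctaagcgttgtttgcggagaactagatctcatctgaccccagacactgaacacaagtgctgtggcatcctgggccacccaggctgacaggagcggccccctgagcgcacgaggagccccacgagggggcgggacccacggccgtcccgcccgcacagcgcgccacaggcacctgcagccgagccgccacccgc
Hadha and Hadhb: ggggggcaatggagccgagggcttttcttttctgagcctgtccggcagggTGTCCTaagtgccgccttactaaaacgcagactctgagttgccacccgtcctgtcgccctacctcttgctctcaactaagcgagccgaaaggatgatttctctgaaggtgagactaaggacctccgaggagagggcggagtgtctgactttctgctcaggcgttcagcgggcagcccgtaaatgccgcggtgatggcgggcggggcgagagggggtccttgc

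The exact hexamer AGGTCA stood in 5 of the 26 windows (Acadm, Acadvl, Cpt1a, Echs1 and Slc27a2) and in 14% of all 32851 promoter windows of this length in the table. The looser AGGNCA, which includes AGGTCA, stood in 21 of the 26 windows and in 51.3% of all. The matches of Hadha and Hadhb are the same bases of their shared stretch, counted for each gene. No window held the direct repeat of AGGNCA with 1 base between the copies (DR1), found in 0.338% of all, or with 4 bases between them (DR4), found in 0.213%. Both strands were searched, and a match describes these letters only.

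In wild-type mice, Amacr was called in 5 of the 6 comparisons between diets and Acsm5 in 4, while Hadhb was the only one of the 9 spiral genes called on its representative probe set, in 1 comparison. A call means an adjusted p under 0.05 (limma, Benjamini-Hochberg adjustment over all 45037 probe sets). Among the 31 genes, 5 were called for EtOH against control, 4 for EtOH plus EA against EtOH, 1 for EtOH plus RSV against EtOH, 5 for EtOH plus EA against control, 8 for EtOH plus RSV against control and 1 for EA against RSV. Over all probe sets the corresponding shares were 5.55%, 2.37%, 0.364%, 14.2%, 19.7% and 0.0244%. Since most probe sets on the array are compressed and most of the 31 genes are not, the 25 uncompressed genes were also set beside the 6633 uncompressed probe sets. There, 4, 4, 1, 4, 7 and 1 of the 25 genes were called, against 17.8%, 9.92%, 1.64%, 41.9%, 44.8% and 0.0905% of the uncompressed probe sets. In the 3 comparisons with control the share of genes called was below this background, and that difference was not tested. The EtOH group enters 3 of these comparisons and the control group 3, so they are not independent.

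**Figure D1:**
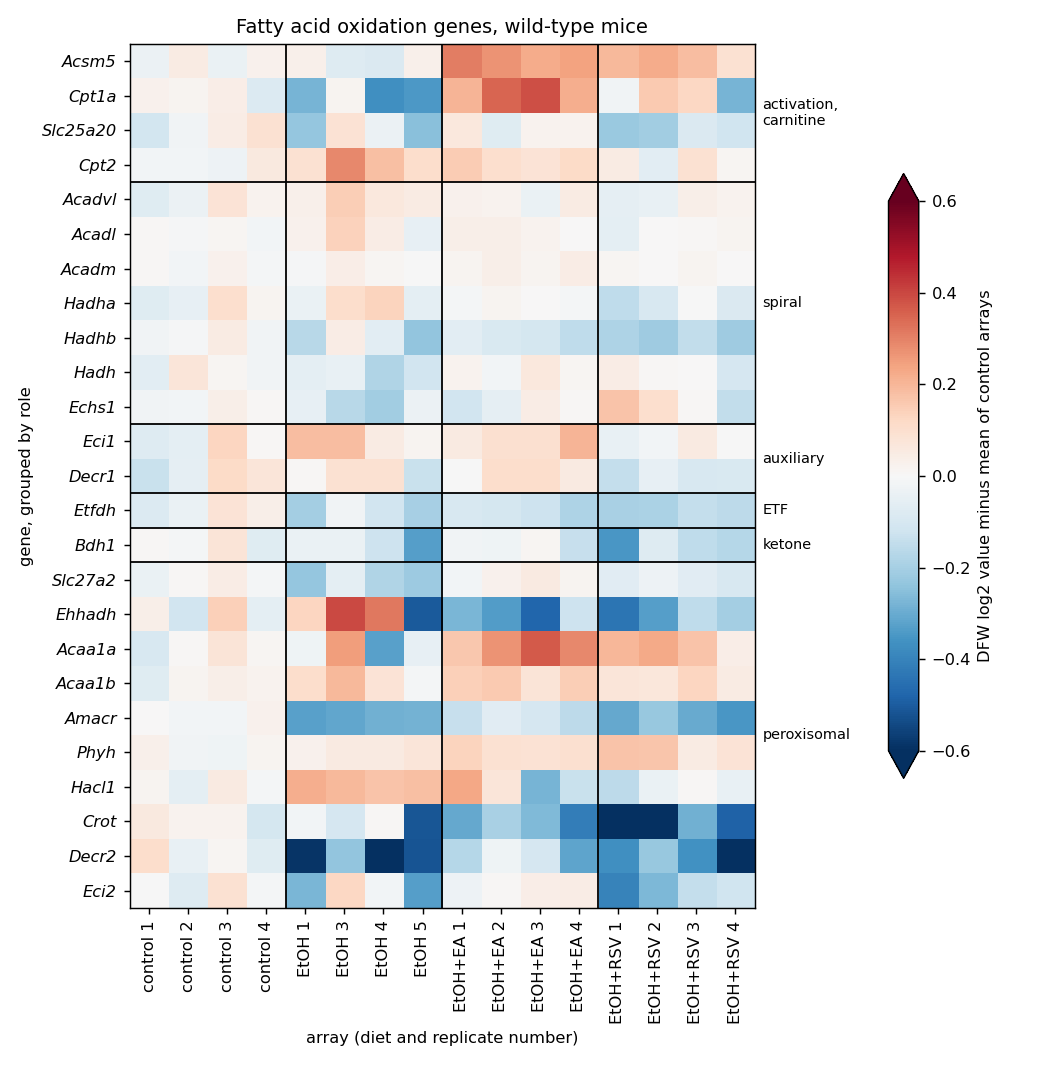
Difference of each of the 16 wild-type arrays (columns, by diet and replicate number) from the mean of the control arrays in DFW log2 units (colour, saturating at 0.6), for the 25 uncompressed genes (rows, by role). Amacr was below the control arrays on all arrays of the other 3 diets, Acsm5 stood highest on the EA arrays, and the rows of the spiral are pale.

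With EtOH against control, 3 of 11 peroxisomal genes were lower and none was higher, and 1 of 5 genes of activation and carnitine transfer was higher. Over all probe sets 2.2% were called higher and 3.35% lower. Among the uncompressed probe sets, to which all these peroxisomal genes but Hsd17b4 belong, 17.8% were called in either direction. Amacr, the racemase that prepares branched chains and bile acid intermediates for oxidation, read 11.38, 11.36, 11.36 and 11.40 on the control arrays. With EtOH it read 11.05, 11.06, 11.09 and 11.09. The groups did not overlap, and Amacr was lower by 0.30 (SE 0.024, adjusted p = 7.7e-05, limma), a call kept in every fit that left out 1 array. Decr2, the peroxisomal dienoyl-CoA reductase, read 11.14, 10.98, 11.04 and 10.96 on control and 10.44, 10.79, 10.42 and 10.51 on EtOH. It had the largest difference of the 31 genes in this comparison, -0.49 (SE 0.12, adjusted p = 0.039, limma), with no overlap. This call was lost in 9 of the 16 fits without 1 array, where the adjusted p reached 0.093.

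Slc27a2, a transporter and acyl-CoA synthetase for very long chains, was lower with EtOH by 0.17 (SE 0.033, adjusted p = 0.012, limma). Its control arrays read 13.24, 13.29, 13.32 and 13.27 and its EtOH arrays 13.05, 13.22, 13.10 and 13.06. Only replicate 3 of EtOH came close to the control range, which it did not reach. Cpt2, the inner membrane carnitine transferase, was the gene that was higher, by 0.17 (SE 0.043, adjusted p = 0.043, limma), with 10.27, 10.27, 10.25 and 10.34 on control and 10.37, 10.57, 10.46 and 10.39 on EtOH. Its groups lay side by side without overlap, and the call was lost in 12 of the 16 fits without 1 array (adjusted p of 0.036 to 0.1). Etfa was called lower too, but it is compressed, its difference was -0.000118, and its sign is not firm. After quantile normalization between arrays, 3 genes were higher (Acads, Cpt2 and Crat) and 3 lower (Amacr, Decr2 and Slc27a2), in place of 1 higher and 4 lower, and 26.1% of all probe sets were called higher and 7.7% lower. Replicate 5 of EtOH was the lowest EtOH array for Crot (11.64), Ehhadh (11.10) and Bdh1 (11.73).

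The genes that missed the call included Cpt1a itself, which read 11.19 ± 0.057 on control and 10.95 ± 0.18 on EtOH (SD, n = 4 each). Its difference was -0.24 (95% interval -0.46 to -0.026, adjusted p = 0.18, limma), and EtOH replicate 3 lay within the control values. Hacl1, the lyase of peroxisomal alpha-oxidation, read 11.65, 11.63, 11.60 and 11.61 with EtOH, all above the control range of 11.38 to 11.49, with a difference of 0.19 (adjusted p = 0.21, limma). Bdh1, which interconverts the ketone bodies acetoacetate and beta-hydroxybutyrate, differed by -0.13 and overlapped between groups. None of the 9 spiral genes was called. Over the 25 uncompressed genes the differences ran from -0.49 to 0.19 with a median of -0.037, beside a median of -0.04 over all uncompressed probe sets.

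When EA was added to EtOH, 4 genes were higher and none was lower, 2 of them in activation and carnitine transfer (Cpt1a and Acsm5) and 2 peroxisomal (Amacr and Slc27a2). Over all probe sets 1.1% were called higher and 1.26% lower. Cpt1a had the largest difference. It read 10.92, 11.21, 10.82 and 10.85 on EtOH and 11.40, 11.54, 11.58 and 11.41 on EtOH plus EA, so that every EA array was above every EtOH array. The difference was 0.53 (SE 0.10, adjusted p = 0.018, limma). Both further probe sets of Cpt1a were called as well, with differences of 0.63 (adjusted p = 0.015, limma) and 0.60 (adjusted p = 0.0085, limma). The call on the first probe set was lost without EtOH replicate 1 or 4 or without EA replicate 2 or 3, with an adjusted p of up to 0.066.

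Acsm5, a mitochondrial medium-chain acyl-CoA synthetase, read 10.02, 9.91, 9.90 and 10.02 on EtOH and 10.30, 10.26, 10.21 and 10.23 with EA. All EA arrays were higher, by 0.29 on average (SE 0.036, adjusted p = 0.0048, limma). Amacr read 11.24, 11.30, 11.27 and 11.22 with EA, between the EtOH arrays and the control arrays and overlapping neither. It was higher than with EtOH by 0.19 (SE 0.024, adjusted p = 0.0048, limma) and lower than on control by 0.12 (adjusted p = 0.0074, limma). Slc27a2 read 13.26, 13.31, 13.33 and 13.30 with EA, within or just above the control values, and was higher than with EtOH by 0.19 (SE 0.033, adjusted p = 0.013, limma). The calls on Acsm5, Amacr and Slc27a2 were kept in all 16 fits without 1 array. In a fit of the EtOH and EA arrays alone, which called 0.246% of all probe sets, of the 4 genes only Amacr was called.

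Other probe sets added to these calls, chosen after their values were seen. A further probe set of Decr1, the mitochondrial dienoyl-CoA reductase, was higher with EA by 0.30 (adjusted p = 0.046, limma), while the representative one differed by 0.052. A further probe set of Hadh, the short-chain hydroxyacyl-CoA dehydrogenase, was higher by 0.085 (adjusted p = 0.018, limma), and the representative one differed by 0.12 in the same direction without a call (adjusted p = 0.14, limma). Decr2 differed by 0.34 (adjusted p = 0.19, limma), the bifunctional peroxisomal enzyme Ehhadh by -0.39 (adjusted p = 0.27, limma) and Hacl1 by -0.22 (adjusted p = 0.22, limma). The 4 Ehhadh arrays on EtOH spread from 11.10 to 12.00, and the EA arrays from 11.13 to 11.48. Of the 25 uncompressed genes 18 had a positive difference and 7 a negative one, with a median of 0.049 beside -0.025 over all uncompressed probe sets.

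**Figure D2:**
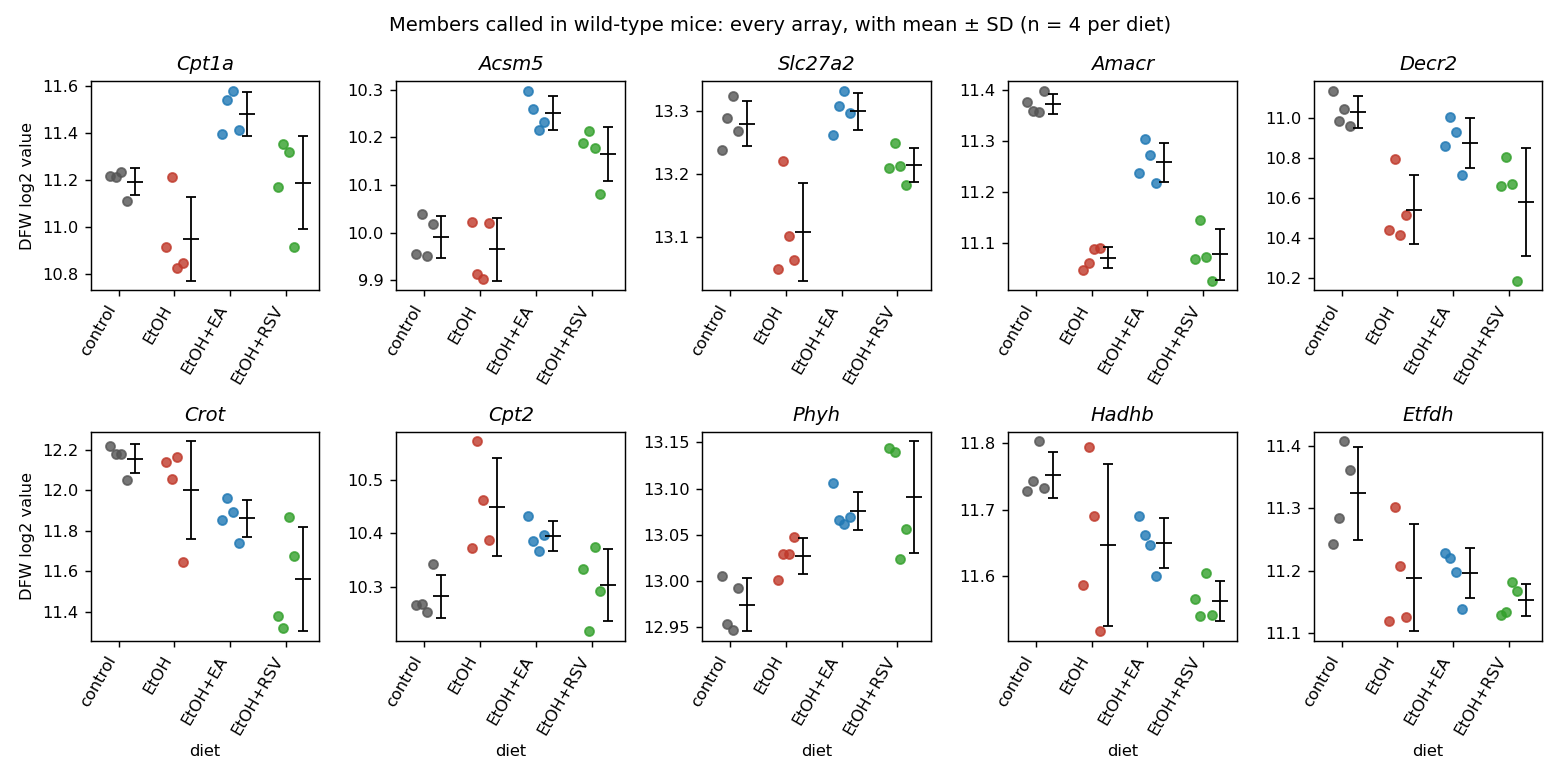
DFW log2 value (vertical axis, a separate scale for each gene that does not start at 0) on every wild-type array (points), grouped by diet, the black mark giving the mean and SD of 4 arrays, for 10 genes called in at least 1 comparison. Cpt1a and Acsm5 stand highest with EA, Amacr steps down from control through EA to EtOH and RSV, and Crot is lowest with RSV.

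With RSV added to EtOH, Acsm5 was the only gene called, where 0.155% of all probe sets were called higher and 0.209% lower. It read 10.19, 10.21, 10.18 and 10.08, above all EtOH arrays, with a difference of 0.20 (SE 0.036, adjusted p = 0.046, limma), and the call was lost in 14 of the 16 fits without 1 array. Cpt1a differed by 0.24 (95% interval 0.022 to 0.46, adjusted p = 0.29, limma), and its RSV arrays spread from 10.91 to 11.35. Crot, the carnitine transferase that exports shortened chains from peroxisomes, differed by -0.44 (adjusted p = 0.15, limma). Over the 25 uncompressed genes, 9 differences were positive and 16 negative, with a median of -0.046 beside -0.04 over all uncompressed probe sets.

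The polyphenols were given at the same daily dose, so EA and RSV can be compared directly, and all 31 genes were tested. Amacr alone was called, higher with EA by 0.18 (SE 0.024, adjusted p = 0.031, limma), and over all probe sets 0.00666% were called higher and 0.0178% lower. The RSV arrays read 11.07, 11.14, 11.07 and 11.03, close to those of EtOH alone, and did not reach the EA values. It was 1 of 11 probe sets called in this comparison over the whole array, and the call was lost in 12 of the 16 fits without 1 array, with an adjusted p of up to 0.16. Cpt1a was higher with EA by 0.29 (95% interval 0.076 to 0.51), with no overlap between the groups, and did not pass (adjusted p = 0.47, limma). Slc27a2 differed by 0.086 (95% interval 0.014 to 0.16, adjusted p = 0.5, limma), also without overlap. Of the 25 uncompressed genes, 22 had a higher mean with EA and 3 with RSV. The median difference was 0.086 beside 0.011 over all uncompressed probe sets, and the 95% intervals reached from -0.37 to 0.58.

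Against the control diet, EtOH plus EA gave 3 genes that were higher and 2 that were lower, beside 6.06% and 8.15% of all probe sets. Acsm5 was higher by 0.26 (SE 0.036, adjusted p = 0.00081, limma), as were the peroxisomal thiolase Acaa1b by 0.13 (adjusted p = 0.039, limma) and Phyh, the hydroxylase that starts alpha-oxidation of phytanic acid, by 0.10 (adjusted p = 0.019, limma). Amacr was lower, and so was the compressed Etfa. The replicate numbers paired the arrays of these groups by the rule used, and with the replicate number as a block 2 more genes were called, Cpt1a higher by 0.29 (adjusted p = 0.016, limma) and Etfdh lower by 0.13 (adjusted p = 0.049, limma). Without the block their adjusted p-values were 0.075 and 0.066, and the block called 15.1% of all probe sets. The further probe sets of Cpt1a were called without the block too, at 0.52 and 0.50. After quantile normalization between arrays, 8 genes were higher and 1 lower, beside 32.6% and 21.1% of all probe sets. The Acaa1b call was lost in 8 of the 16 fits without 1 array and that of Phyh without EA replicate 1 or control replicate 3. Probe sets naming both Acaa1a and Acaa1b, near-identical thiolases, were not used, and cross-hybridisation between the pair was not tested.

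EtOH plus RSV against control gave the largest number of genes called, 2 higher and 6 lower, and these reached both the mitochondrial and the peroxisomal side. Over all probe sets 9.07% were called higher and 10.7% lower. Crot read 12.22, 12.18, 12.18 and 12.05 on control and 11.38, 11.32, 11.87 and 11.67 with RSV. It was lower by 0.60 without overlap (SE 0.13, adjusted p = 0.0083, limma), the largest difference on a representative probe set in wild-type mice. Decr2 was lower by 0.45 (adjusted p = 0.024, limma), with 10.66, 10.80, 10.67 and 10.19 on the RSV arrays, and Amacr was lower by 0.30 (adjusted p = 4.7e-05, limma). The call on Decr2 was lost without control replicate 1 or 3. Acsm5 was higher by 0.17 (adjusted p = 0.0068, limma) and Phyh by 0.12 (adjusted p = 0.008, limma).

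On their representative probe sets, 1 gene of the spiral and 1 uncompressed gene of the flavoprotein step were called in this comparison. Hadhb, the beta subunit of the trifunctional protein, read 11.73, 11.74, 11.80 and 11.73 on control and 11.57, 11.54, 11.60 and 11.54 with RSV, without overlap. It was lower by 0.19 (SE 0.047, adjusted p = 0.016, limma), but neither of its other probe sets was called, and the median over its 3 probe sets gave no call. Hadha, which shares the intergenic stretch printed above, differed by -0.083 (95% interval -0.19 to 0.023, adjusted p = 0.25, limma). Etfdh, which passes electrons to ubiquinone, was lower by 0.17 (SE 0.043, adjusted p = 0.016, limma), with 11.24, 11.28, 11.41 and 11.36 on control and 11.13, 11.13, 11.18 and 11.17 with RSV. For the ketone body enzyme Bdh1, the representative probe set differed by -0.19 (adjusted p = 0.077, limma) and the other probe set was lower by 0.39 (adjusted p = 0.01, limma). Of the 25 uncompressed genes, 7 differences were positive and 18 negative, with a median of -0.06 beside -0.077 over all uncompressed probe sets.

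The remaining genes were called in no wild-type comparison on their representative probe set. Acadvl, Acadl, Acadm and Acads, which open the spiral for very long, long, medium and short chains, Hadha, Hadh, the hydratase Echs1 and the thiolase Acaa2 belong here, as do Eci1 and Decr1, which handle unsaturated chains. So do Slc25a20, Crat, Etfb, Bdh1 and the peroxisomal Ehhadh, Hsd17b4, Acaa1a, Hacl1 and Eci2. Acadm showed the narrowest range of the spiral genes that were not compressed, from 12.38 to 12.45 over all 16 arrays. Crat was represented by a compressed probe set near 8.17, while another of its probe sets ranged from 7.49 to 8.55. The 95% interval of a difference reached a median of 0.11 to either side over the uncompressed genes, with 4 arrays per diet.

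In CAR-deficient mice, 1 array must be named first. EtOH replicate 1 was the lowest of the 12 arrays for 23 of the 30 uncompressed genes, at a median of -0.42 from the control mean. EtOH replicate 2 was the highest for 18 of the 30 genes, at a median of 0.23. The mean correlation of EtOH replicate 1 with the other arrays was 0.9356, against 0.9588 to 0.9748 for the others. The median SD over the uncompressed genes was 0.359 in the EtOH group, beside 0.062 on control, 0.125 with EA and 0.118 with RSV. Ehhadh read 11.15 on this array and 13.45 and 12.99 on the other EtOH arrays, Acaa1b 12.73 against 14.61 and 14.43, and Bdh1 11.63 against 13.17 and 12.94. The mean of 10 hepatocyte markers was 15.991 on this array and 15.450 to 15.638 on the others. Only 6 probe sets had any value above 15 in CAR-deficient mice, so part of the list, at extreme values, carries this mean. It shows no more than that hepatocyte RNA was present there. The mean level on EtOH replicate 1 was also the highest of the 12 arrays for periportal markers (11.663). It was the lowest for pericentral (10.205), sinusoidal endothelial (8.876) and stellate markers (8.501), and neither for Kupffer, leukocyte and adipocyte markers. The part of this array's quality in the results was not tested.

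**Figure D3:**
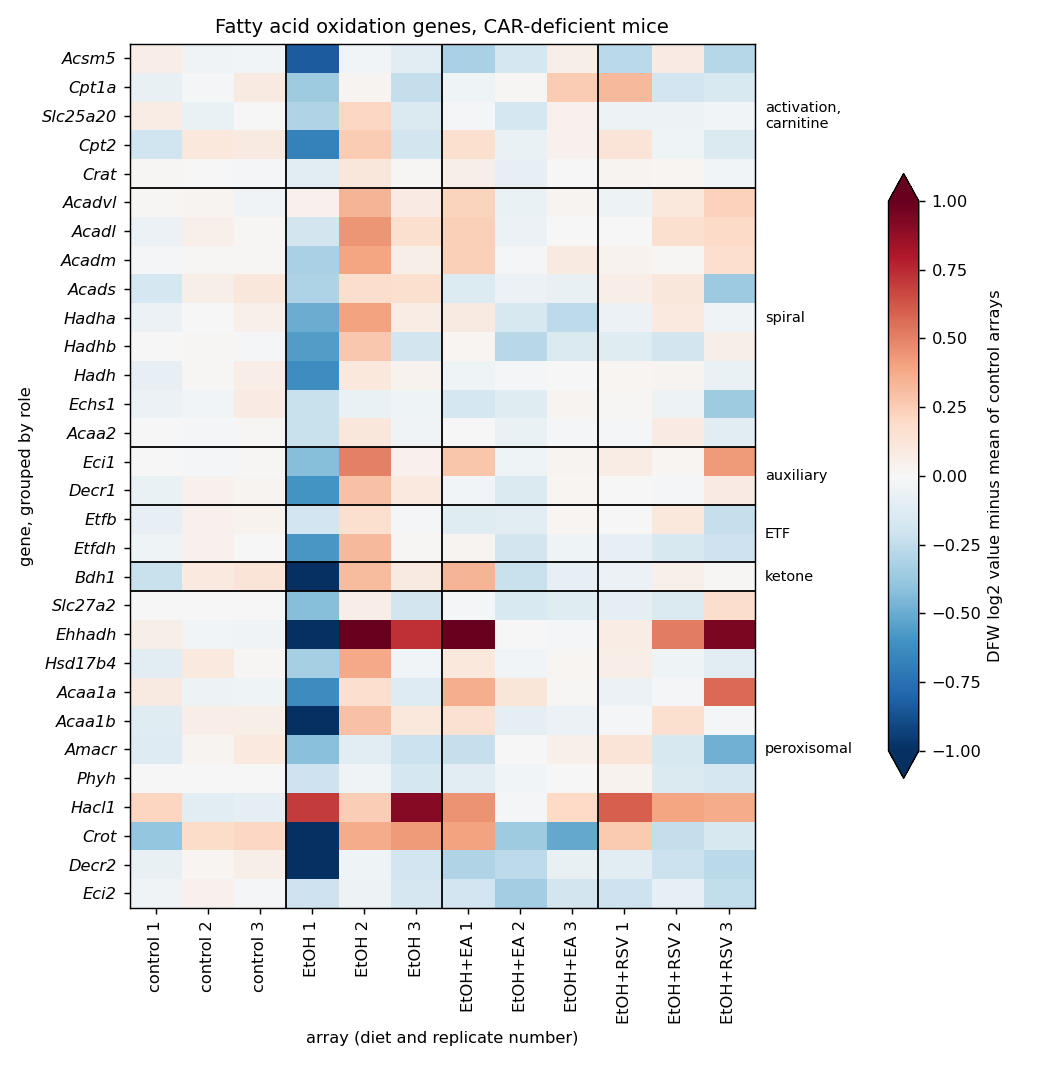
Difference of each of the 12 CAR-deficient arrays (columns, by diet and replicate number) from the mean of the control arrays in DFW log2 units (colour, saturating at 1), for the 30 uncompressed genes (rows, by role). The column of EtOH replicate 1 is blue for nearly all genes and that of EtOH replicate 2 mostly red, while Hacl1 is red on all 3 EtOH arrays.

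No gene of the set was called in any of the 6 comparisons in CAR-deficient mice by limma, with or without any single array. At an unadjusted p under 0.05 the counts were 2 for EtOH against control, 0 for EA and 0 for RSV against EtOH, 1 for EA and 2 for RSV against control, and 0 for EA against RSV. Of all 45011 probe sets, 5563, 3824, 2459, 5268, 4646 and 1342 were under this unadjusted threshold in the same order. The rank product called Hacl1 for EtOH against control, and Hacl1 and Ehhadh for RSV against control, all higher, beside 0.875% and 1.22% of all probe sets called higher by it. Over all 45011 probe sets, limma called 0.344%, 0%, 0%, 0.18%, 0.06% and 0% in the same order. The 95% interval of a difference reached a median of 0.38 to either side over the uncompressed genes, beside 0.11 in wild-type mice. Whether the genotypes differed in any of these responses was not tested, since their values were summarised apart.

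The direction of the EtOH comparisons turned on that array. For EtOH against control, 9 of 30 differences were positive with all arrays (median -0.095) and 22 of 30 without EtOH replicate 1 (median 0.07). For EA against EtOH, 22 of 30 were positive with all arrays (median 0.039) and 5 of 30 without it (median -0.138). For RSV against EtOH, 20 and 4 of 30 were positive. Over all uncompressed probe sets and with all arrays, the median was 0.02 for EtOH against control. It was -0.023 for EA and -0.007 for RSV against EtOH. Cpt1a read 11.81, 12.19 and 11.92 on EtOH and 12.12, 12.18 and 12.41 with EA, with a difference of 0.26 (95% interval -0.096 to 0.62) and, without the array, of 0.18 (95% interval -0.23 to 0.59). For Acsm5 the EA difference was 0.18 with all arrays and -0.071 without it, for Slc27a2 0.084 and -0.039, and for Amacr 0.19 and 0.1. The intervals of all 4 genes contained 0 in both fits.

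**Figure D4:**
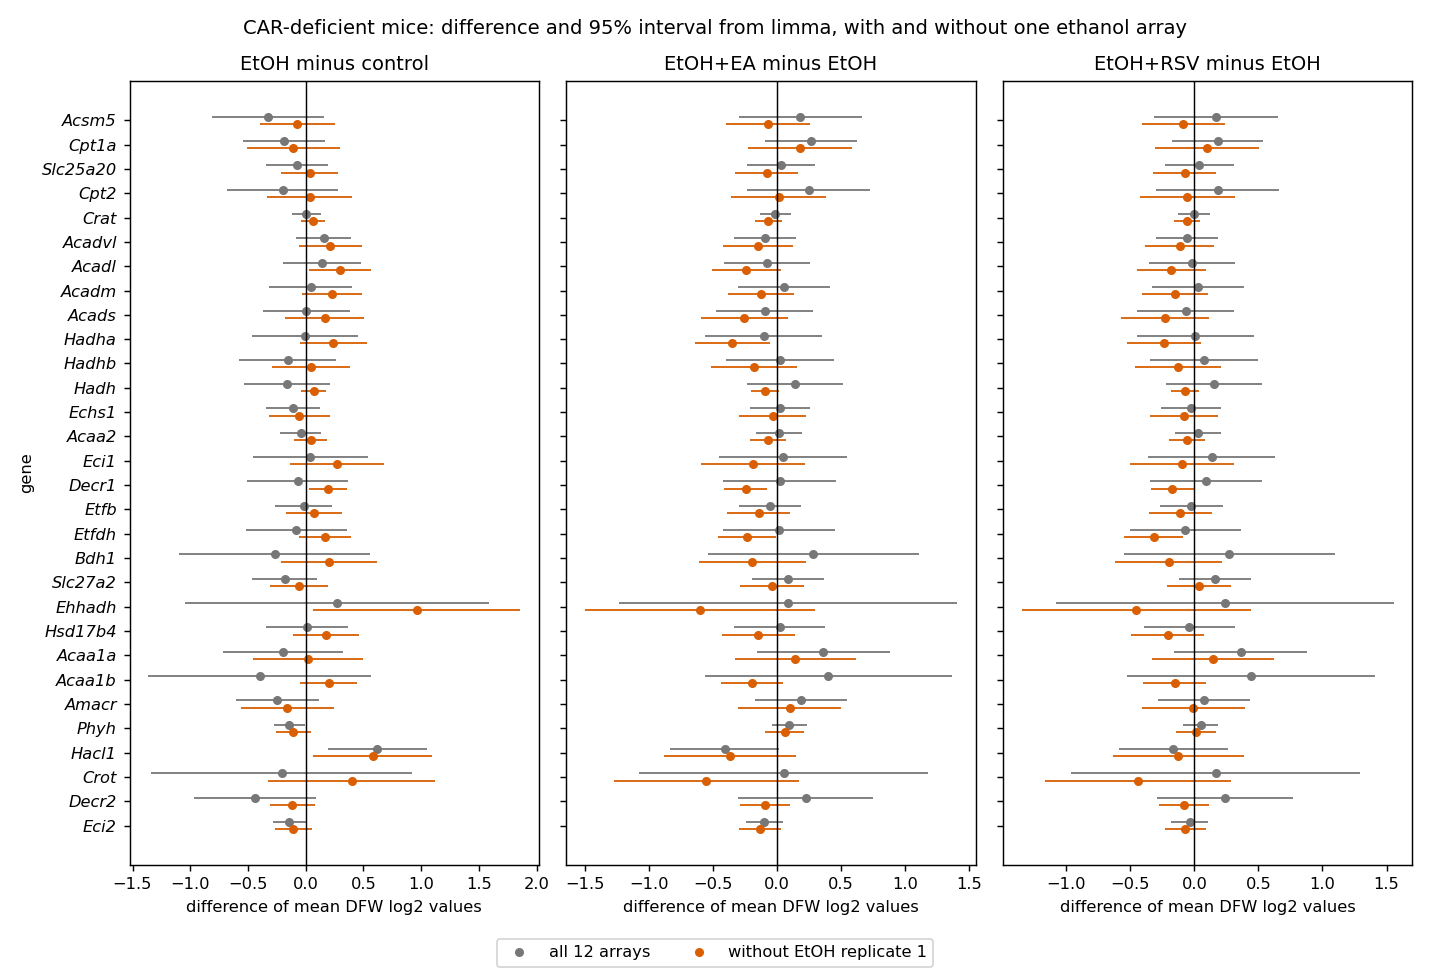
Difference of group means in DFW log2 units (points) with the 95% interval from limma (lines) for the 30 uncompressed genes in CAR-deficient mice, from all 12 arrays (grey) and without EtOH replicate 1 (orange). Most grey and orange points lie on opposite sides of 0 in the EA panel, where 22 and 5 of 30 are positive.

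Hacl1 kept its place in the EtOH comparison with and without the array. It read 12.21, 11.89 and 11.90 on control and 12.70, 12.25 and 12.91 with EtOH, above every control array. The difference was 0.62 (95% interval 0.19 to 1.05, adjusted p = 0.23, limma) and 0.58 without EtOH replicate 1 (adjusted p = 0.37, limma), and in wild-type mice it had been 0.19. Ehhadh differed by 0.27 with all arrays and by 0.96 without EtOH replicate 1 (95% interval 0.065 to 1.86, adjusted p = 0.39, limma). Eci2, the peroxisomal enoyl-CoA isomerase, read 12.68, 12.75 and 12.70 on control, and 12.52, 12.36 and 12.53 with EA. Its difference of -0.24 had the smallest adjusted p in these mice, 0.18 (limma). The CAR-deficient EtOH and control arrays were paired by the rule used, and the replicate block left the count at 0, with a smallest adjusted p of 0.21 for Hacl1.

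Lists of other genes of the same pathways were examined in wild-type mice, leaving compressed probe sets aside. Of all uncompressed probe sets, 17.8% were called for EtOH against control, 9.92% for EA and 1.64% for RSV against EtOH. Against control, the share was 41.9% with EA and 44.8% with RSV. These shares also stand beside the counts of ketone body genes and regulators below. Of 22 other genes of mitochondrial oxidation, 1 was lower for EtOH against control (Acsl5, a long-chain synthetase, by 0.37), and none was called for EA or RSV against EtOH. For EA against control 3 were higher, Pcca at 0.25, Acad10 at 0.25 and Acsm1 at 0.059, and Acsl5 was lower by 0.41. Against control with RSV, 4 were higher, led by Ivd, the isovaleryl-CoA dehydrogenase, at 0.31, and 1 lower, Acsl5 at -0.43. Of 14 other peroxisomal genes none was called with EtOH against control. The hydrolases Nudt12 (0.43) and Nudt19 (-0.33) were called with EA against EtOH. For EA against control 4 were higher and 2 lower, among them the acyl-CoA thioesterases Acot3 at 2.13 and Acot4 at 0.70, both higher, and Nudt19 at -0.40. With RSV against control the peroxisomal oxidase Pipox was higher by 0.27, and the transporter Abcd2 (-0.90), Hao1 (-0.25) and Nudt7 (-0.24) were lower. Of 5 peroxins, Pex19 was lower with EtOH by 0.33, and Pex26 was higher with EA than with EtOH by 0.51.

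Of 4 other genes of ketone body metabolism, 1 was higher and 2 lower with EtOH against control. The monocarboxylate transporter Slc16a7 was higher by 0.52, Slc16a6, which exports ketone bodies from hepatocytes, was lower by 0.49, and the thiolase Acat1 was lower by 0.18. With EA and with RSV against control, Slc16a6 was lower by 0.67 and 0.78 and Slc16a1 by 0.72 and 0.88, and Slc16a7 was higher by 0.78 and 0.65.

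Of 13 regulators of oxidation, 3 were higher and none lower with EtOH against control, and 4 were higher with EA against EtOH. The coactivator Lpin2 was higher with EtOH than on control by 0.74 (adjusted p = 0.011, limma) and the transcription factor Klf15 by 0.45 (adjusted p = 0.045, limma). Ppargc1b, a coactivator of mitochondrial genes, was higher with EtOH than on control by 0.46 (adjusted p = 0.021, limma), higher again with EA by 0.74 (adjusted p = 0.0056, limma) and with RSV by 0.88 (adjusted p = 0.01, limma). The liver factor Creb3l3 was higher with EA than with EtOH by 0.20 (adjusted p = 0.028, limma), and the deacetylase Sirt3 by 0.25 (adjusted p = 0.023, limma). Fgf21, a fasting hormone made under PPARα, differed from control by -1.05 with EA (adjusted p = 0.029, limma) and by -1.62 with RSV (adjusted p = 0.0029, limma). Ppara itself was called in no comparison, with 0.12 for EtOH against control and 0.31 for EA against EtOH. Nr1i3 was higher with EA than with EtOH by 0.64 (adjusted p = 0.045, limma), reading 9.18, 9.68, 9.14 and 8.96 with EtOH and 9.77, 9.75, 10.1 and 9.92 with EA. Against control 3 regulators were higher and 2 lower with EA, and 4 were higher and 1 lower with RSV. No gene of these lists was called in CAR-deficient mice.

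Markers of other cells moved between the same wild-type groups. Compressed probe sets were again left aside in the counts, while the mean levels cover each whole list. Of all uncompressed probe sets, 17.8% were called for EtOH, 41.9% for EA and 44.8% for RSV against control. The share was 9.92% for EA against EtOH. Of 8 Kupffer cell markers, 7 were lower with EtOH, 8 with EA and 7 with RSV against control. Their mean level over 12 markers was 8.468 to 8.582 on control, 8.304 to 8.413 with EtOH, 8.313 to 8.353 with EA and 8.285 to 8.404 with RSV. Of 8 pericentral hepatocyte markers, 3 were higher and 2 lower with EtOH against control, and the mean level of the list of 10 ran from 9.625 to 9.722 on control, from 9.76 to 9.836 with EtOH, from 9.93 to 10.047 with EA and from 9.824 to 9.987 with RSV. Of 8 periportal markers, 1 was higher with EtOH, 2 with EA and 2 with RSV against control. With EtOH against control, 1 of 5 sinusoidal endothelial markers was higher and 1 lower, the 1 leukocyte marker was lower, 1 of 5 general hepatocyte markers was lower, and none of 5 stellate markers was called. All 4 cholangiocyte and all 3 adipocyte markers were compressed. With EA against EtOH, the comparison in which Cpt1a and Slc27a2 were higher, 1 of 5 sinusoidal endothelial markers was higher and no marker of the other lists was called. The mean endothelial level was 8.484 to 8.516 with EtOH and 8.562 to 8.636 with EA, so that this list, like the pericentral one, did not overlap between the groups. The part of these markers in the results on fatty acid oxidation genes was not tested.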

How the data were processed

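Liver RNA was measured on 28 Affymetrix Mouse Genome arrays, 16 from wild-type and 12 from CAR-deficient mice. The deposited values are log2 values that the authors summarised with Distribution Free Weighting in R, apart for the 2 genotypes, and no depth exists for such data. No further normalization was applied. Groups and replicate numbers came from the sample titles, and 4 wild-type EtOH arrays are numbered 1, 3, 4 and 5. Of 45101 probe sets, 64 Affymetrix controls were left out. A further 26 that are blank in CAR-deficient mice were left out of the CAR-deficient fits only. In the annotation, 34945 probe sets name 1 gene, 932 several and 9160 none.

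Diets were compared by limma 3.58.1 (lmFit and eBayes) in R 4.3.3, with 1 fit of 4 diets per genotype, two-sided, with p-values adjusted by Benjamini-Hochberg across every probe set tested and called below 0.05. The rank product, which the study names for its comparisons, was an alternative. The genes and lists were chosen with earlier results of these data known, so they are not independent evidence. Every gene past the threshold was named, and for the other lists up to 5 genes with the largest differences. The scripts were tested on simulated data.

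The replicate numbers were checked by correlating the deviations of same-numbered arrays from their group means. Every pair was above 0.1 for wild-type EtOH plus EA and control (0.568, 0.306, 0.156 and 0.278) and for CAR-deficient EtOH and control (0.409, 0.292 and 0.33), and these were treated as paired, from the titles' numbers and this check. Nothing says that the numbers mark a litter or day. Promoter sequences came from RefSeq (GRCm38.p6).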

Additional observations from a re-analysis of the deposited data

Results flagged for a closer look

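Cpt2 on wild-type control replicate 4 stood apart from its group at 10.34, while the other 3 control arrays read 10.25 to 10.27. Its gap was 0.832 of the range of the group. It was 1 of 100 groups of 4 arrays examined, and chance flags about 1 in 20.

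In 7 cases every array of the first diet lay on one side of the mean of the second diet in wild-type mice. In CAR-deficient mice every such array lay on the opposite side. The difference between genotypes was not tested, and how many such cases arise by chance or over all probe sets was not determined. Phyh differed by 0.05 in wild-type and by -0.14 in CAR-deficient mice for EtOH against control, and by 0.1 and -0.05 for EtOH plus EA against control. Cpt2 differed by -0.05 and 0.25 for EtOH plus EA against EtOH, and by -0.14 and 0.18 for EtOH plus RSV against EtOH. Eci2 differed by 0.14 and -0.1 for EtOH plus EA against EtOH. Decr1 differed by -0.11 and 0.09 for EtOH plus RSV against EtOH. Ehhadh differed by -0.28 and 0.51 for EtOH plus RSV against control. Without CAR-deficient EtOH replicate 1, the differences in CAR-deficient mice against EtOH were 0.012 and -0.055 for Cpt2 (EA and RSV), -0.132 for Eci2 and -0.174 for Decr1, and that of Phyh for EtOH against control was -0.106.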

How the results depend on the processing

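In order of EtOH against control, EA against EtOH, RSV against EtOH, EA against control, RSV against control and EA against RSV, leaving out 1 array at a time gave 3 to 6, 3 to 5, 0 to 2, 3 to 9, 7 to 10 and 0 to 1 genes in wild-type mice, and 0 to 0 in every CAR-deficient comparison, where a count of 0 says nothing about stability. With 1 array out of a group of 3, limma shared the spread over the diets. Fitting only the 2 diets compared gave 2 genes for EtOH against control, 1 for EA against EtOH, 0 for RSV against EtOH, 10 for EA against control and 0 for EA against RSV. This fit called 0.246% of all probe sets for EA against EtOH, and its shares in the other comparisons are not given here. A count without such a share says nothing particular about these genes. The replicate block gave 2, 0 and 0 for EtOH against control, RSV against EtOH and EA against RSV. It gave 5 for EA against EtOH and 10 for RSV against control. In none of these comparisons did the numbers pair the arrays, and the block's shares of all probe sets in them are not given here. For EA against control, where the numbers paired the arrays by the rule used, the block gave 7 and called 15.1% of all probe sets. The block drops wild-type EtOH replicate 5, which shares its number with no other array. Quantile normalization gave 9 genes for EA against control. The median over the probe sets of a gene gave 0 for EA against RSV. The rank product gave 8 for EA against EtOH, 5 for RSV against EtOH, 8 for EA against control and 8 for EA against RSV, and in CAR-deficient mice 1 for EtOH against control and 2 for RSV against control. Over all 45037 probe sets in wild-type mice, it called 853 higher and 1083 lower for RSV against EtOH, where limma called 70 and 94. For EA against RSV it called 840 and 664, where limma called 3 and 8. It called 1122 higher and 1411 lower for EA against EtOH, and 1619 and 2212 for EA against control. For EtOH against control, limma called 991 higher and 1510 lower, and after quantile normalization 11768 and 3466. Counting uncompressed genes alone was an alternative chosen after seeing the data. Etfa, compressed in wild-type mice, turned direction under quantile normalization, to 0.002893 for EA and 0.001253 for RSV against control. The cause of these changes was not tested. Among single genes, 402 of the other results kept direction and call and 81 kept direction and lost the call. The number of arrays limits the precision, and signal over background is not known from these values.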
